A study of Mus musculus with 8 samples.

Results

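Kinesins are motor proteins that walk along microtubules, and 36 kinesin genes were measured in the hippocampus of mice lacking the potassium channel Kv10.1. They were taken by name alone, as all probe sets whose platform gene symbol is Kif followed by a number and at most 1 letter, which gave 36 of the 20985 probe sets on the array, each standing for a different gene. The name pattern leaves out the Kifc motors and Cenpe, which are kinesins under other names. Of 38 mouse genes with such a name in the RefSeq gene table of assembly GRCm38.p6, Kif7 and Kif28 were not analysed here.

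Each of 8 arrays carried hippocampal total RNA from a single untreated male mouse aged 8 weeks. The mice were 4 Kv10.1 -/- knockout animals and 4 Kv10.1 +/+ wildtype animals, so that replicate error here is variation from animal to animal. The deleted part of the gene, the strain background and whether the mice were littermates are not stated in the labels. Levels are the deposited log2 values, differences are knockout minus wildtype on that log2 scale, and the test is limma's moderated test with Benjamini-Hochberg adjustment over all 20985 probe sets.

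Long axons and dendrites depend on kinesins to carry vesicles, mitochondria and receptors away from the cell body. The kinesin-1, kinesin-2 and kinesin-3 families do most of this transport. Another set of kinesins builds the spindle, moves chromosomes and completes cytokinesis in dividing cells, and most cells of the adult hippocampus no longer divide, apart from progenitors of the dentate gyrus and some glia. The 36 genes were grouped by these known roles into 13 transport kinesins, 12 mitotic kinesins, 3 kinesins that act on microtubule ends in neurons, 5 kinesins tied to cilia or centrioles and 3 others.

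The targeted gene followed the labels in every mouse. Kcnh1, which encodes Kv10.1, read 8.36, 8.31, 8.43 and 8.29 in knockout mice, against 9.52, 9.35, 9.22 and 9.27 in wildtype mice. The difference was -0.99 ± 0.081 (SE; limma adjusted p = 0.00319). The two-sided exact permutation p was 0.0286, the lowest that 4 mice against 4 allow. Array medians lay between 7.50 and 7.55, but the interquartile range of a whole array ran from 2.09 to 2.42, with wildtype 1 the widest and knockout 1 next at 2.30. The mice carry 2 series of numbers. Knockout 1 and wildtype 1, 2 and 3 belong to the lower series, and knockout 2, 3 and 4 and wildtype 4 to the higher, so that series and genotype are largely mixed up. Of the neuron markers, 10 of 10 lay above the Vmn1r background line given below in wildtype mice, against 81.6% of all probe sets. Snap25, a synaptic fusion protein, read 12.44 ± 0.054 in knockout and 12.48 ± 0.084 in wildtype mice (SD, n = 4 each). These markers were not used to tell hippocampus from other brain tissue.

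The transport and mitotic classes lay in separate parts of the array's range in both genotypes. Transport kinesins had a median level of 9.86 in knockout and 9.80 in wildtype mice, and mitotic kinesins one of 6.27 in knockout and 6.21 in wildtype mice. In wildtype mice the transport members ran from 7.78 for Kif13a to 11.71 for Kif1a, and the mitotic members from 5.81 for Kif14 to 7.05 for Kif22, with no overlap. Ranked among all 20985 probe sets, the median transport kinesin stood at the percentile 89.8 and the median mitotic kinesin at 15.7. Probes differ in affinity, so these figures place each class within the array and do not rank single genes by transcript number.

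A background level was taken from 125 probe sets of vomeronasal receptors (Vmn1r), genes not known to be used in the hippocampus. Their 95th percentile in wildtype mice was 6.32. All 13 transport kinesins exceeded it, as did 5 of 12 mitotic kinesins (Kif11, Kif18b, Kif20a, Kif22 and Kif23), and the share over all probe sets was 81.6%. Against 1083 olfactory receptor (Olfr) probe sets, with a 95th percentile of 6.86, the transport count stayed at 13 and the mitotic count was 1, Kif22. A level under either line cannot be told from background. A list of 24 measured genes of S phase, mitosis and cytokinesis, such as Mki67 and Top2a, had a median wildtype level of 6.71, with 19 above the Vmn1r line and 9 above the Olfr line. In whole tissue, few cells with a transcript and little transcript in many cells cannot be told apart.

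**Figure D1:**
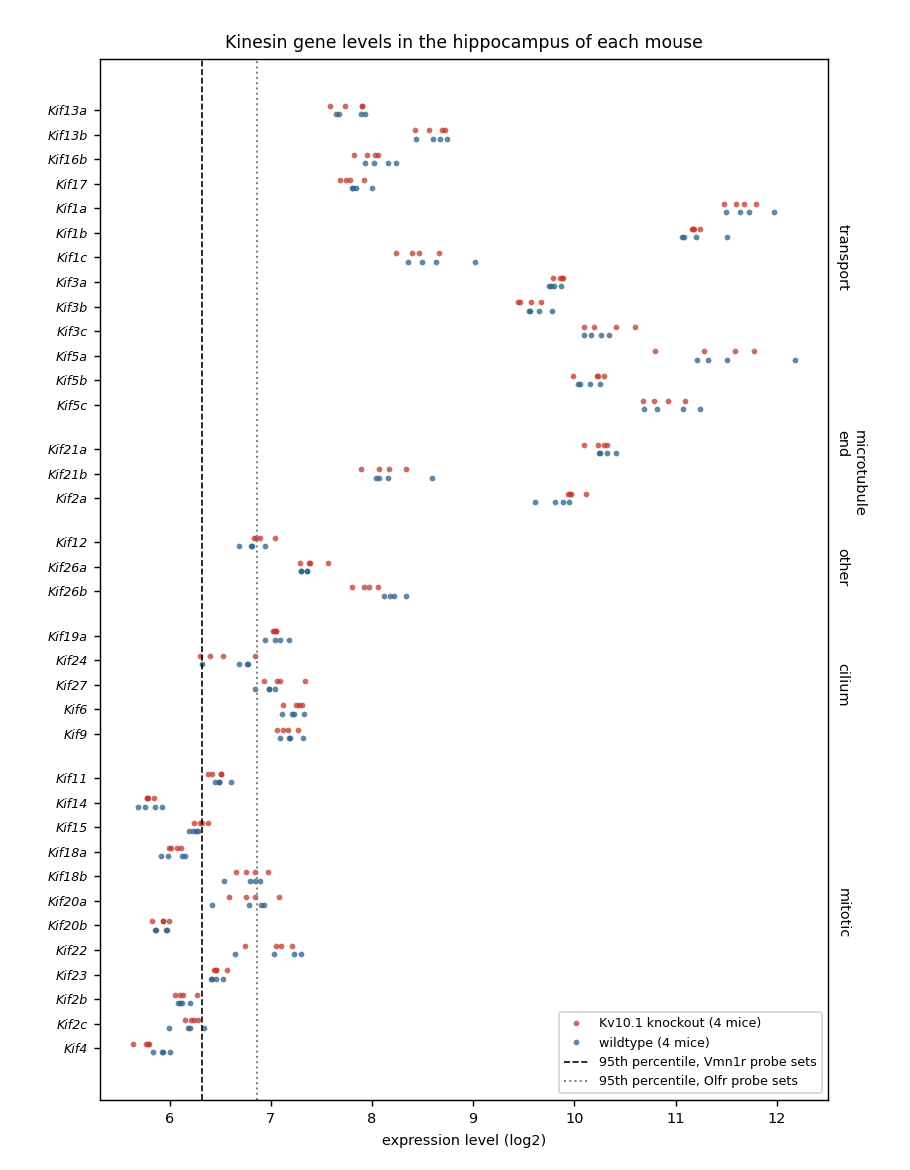
Each dot is the log2 level of 1 kinesin gene in 1 mouse, with 4 knockout mice (red, upper row of each gene) and 4 wildtype mice (blue, lower row); genes are grouped by class and the lines mark the 95th percentile of Vmn1r and Olfr probe sets in wildtype mice (6.32 and 6.86). All transport kinesins lie right of both lines, and 7 of 12 mitotic kinesins have wildtype means left of the Vmn1r line.

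The gene starts of the 2 classes also differed in short sequence words that the naming rule did not use. Many genes switched on late in the cell cycle carry a CHR element (TTTGAA or TTCGAA), often close to a CCAAT box, through which the DREAM and MuvB complexes are known to act, whereas GC boxes (GGGCGG) mark many promoters that are active in all cells. Windows from 250 bases before to 50 bases after each gene start were taken from RefSeq (GRCm38.p6), which held 30 of the 36 genes, and were searched on both strands. A CHR word was found in 9 of 11 mitotic kinesin genes and 1 of 10 transport kinesin genes, against 21.7% of 27025 mouse genes. Within 50 bases either side of the start, a span chosen after the matches were seen, the counts were 7 of 11 mitotic and 1 of 10 transport, against 6.12% of all genes. CCAAT was found in 7 of 11 mitotic and 3 of 10 transport genes, against 41.1% of all genes. GGGCGG was found in 6 of 11 mitotic and 8 of 10 transport genes, against 38.2%, and TATAAA in 1 of 11 and 1 of 10, against 15.7%. A word match is not evidence that a factor binds there.

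These windows are shown for Kif4 and Kif26b, the 2 genes whose genotype groups did not overlap, for the mitotic motors Kif11, Kif18b and Kif23, and for Kif5c as a transport motor without either word. Each runs 5′ to 3′ on the gene's strand, and capitals mark CHR words (TTTGAA, or TTCAAA on the other strand) and CCAAT boxes (CCAAT, or ATTGG on the other strand).
Kif4 (chrX:100625815-100626114, plus strand): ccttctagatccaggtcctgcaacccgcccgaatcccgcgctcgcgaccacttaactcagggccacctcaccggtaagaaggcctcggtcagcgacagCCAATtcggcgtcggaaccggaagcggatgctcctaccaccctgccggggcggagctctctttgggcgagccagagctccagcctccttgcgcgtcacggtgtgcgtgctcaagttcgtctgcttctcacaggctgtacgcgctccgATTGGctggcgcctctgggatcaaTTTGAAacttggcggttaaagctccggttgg
Kif11 (chr19:37376132-37376431, plus strand): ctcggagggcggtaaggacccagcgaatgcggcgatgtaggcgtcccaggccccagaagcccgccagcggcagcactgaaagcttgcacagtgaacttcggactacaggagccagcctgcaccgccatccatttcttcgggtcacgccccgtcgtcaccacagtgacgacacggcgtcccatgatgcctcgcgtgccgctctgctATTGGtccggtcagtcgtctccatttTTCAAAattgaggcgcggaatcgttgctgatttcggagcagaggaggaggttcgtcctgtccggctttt
Kif18b (chr11:102925075-102925374, minus strand): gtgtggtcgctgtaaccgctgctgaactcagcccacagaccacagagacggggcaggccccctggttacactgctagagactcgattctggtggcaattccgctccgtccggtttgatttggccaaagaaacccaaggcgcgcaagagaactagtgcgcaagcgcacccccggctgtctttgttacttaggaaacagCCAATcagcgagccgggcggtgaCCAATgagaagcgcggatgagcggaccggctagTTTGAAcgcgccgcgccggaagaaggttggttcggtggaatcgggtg
Kif23 (chr9:61946750-61947049, minus strand): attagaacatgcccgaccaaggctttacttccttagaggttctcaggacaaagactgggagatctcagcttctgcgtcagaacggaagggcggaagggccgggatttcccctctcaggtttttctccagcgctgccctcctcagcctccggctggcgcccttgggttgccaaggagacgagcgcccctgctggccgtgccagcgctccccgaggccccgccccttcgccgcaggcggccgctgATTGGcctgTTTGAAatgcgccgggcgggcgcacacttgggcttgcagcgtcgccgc
Kif26b (chr1:178528875-178529174, plus strand): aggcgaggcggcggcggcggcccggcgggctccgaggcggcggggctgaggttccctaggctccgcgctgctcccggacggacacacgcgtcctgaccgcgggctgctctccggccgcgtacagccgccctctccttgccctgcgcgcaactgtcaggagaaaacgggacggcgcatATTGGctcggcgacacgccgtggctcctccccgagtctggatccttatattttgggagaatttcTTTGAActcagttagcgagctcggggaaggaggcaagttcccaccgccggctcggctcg
Kif5c (chr2:49619036-49619335, plus strand): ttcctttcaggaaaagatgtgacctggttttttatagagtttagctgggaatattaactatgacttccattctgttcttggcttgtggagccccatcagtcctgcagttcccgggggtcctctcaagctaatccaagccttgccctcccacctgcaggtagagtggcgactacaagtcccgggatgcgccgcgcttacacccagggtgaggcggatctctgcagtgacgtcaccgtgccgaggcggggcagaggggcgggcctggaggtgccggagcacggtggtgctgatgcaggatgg
In Kif4, Kif11, Kif18b and Kif23 the CHR word lies downstream of a CCAAT box. Of the 9 mitotic genes with a CHR word, 5 have this order (Kif22 is the other), Kif14 has its CHR word upstream of its CCAAT box, and Kif15, Kif20b and Kif2c hold no CCAAT. Counted over genes with or without a CHR word, the order was found in 5 of 11 mitotic genes (45.5%). The like figures were 0 of 10 transport genes and 4.6% of all genes. Kif26b, which is no mitotic kinesin, holds both words in the same order, and Kif5c holds neither.

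Between the genotypes, 0 of 36 kinesin genes passed an adjusted p of 0.05 (limma), where 0.00477% of all probe sets did, Kcnh1 alone. At an unadjusted p under 0.05 there were 2 of 36 (5.56%), against 3.16% of all probe sets, and both were lower in knockouts (1.53% of all probe sets were lower at that p). The same 2 genes, Kif26b and Kif4, were the ones whose 4 knockout values all lay below the 4 wildtype values, where 2.16% of all probe sets did not overlap (1.19% lower and 0.967% higher in knockouts). With counts this small the share does not stand apart from that of the whole array. For 35 of the 36 genes the 95% interval of the difference lay within 0.5 log2 units of 0 on both sides, a 1.41-fold change, the exception being Kif5a. Differences smaller than those intervals were not detectable with 8 arrays. Of the 36 genes, 29 had wildtype means above the Vmn1r line and 23 above the Olfr line. For a gene under either line, the interval bounds the reading and not the change of its transcript.

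**Figure D2:**
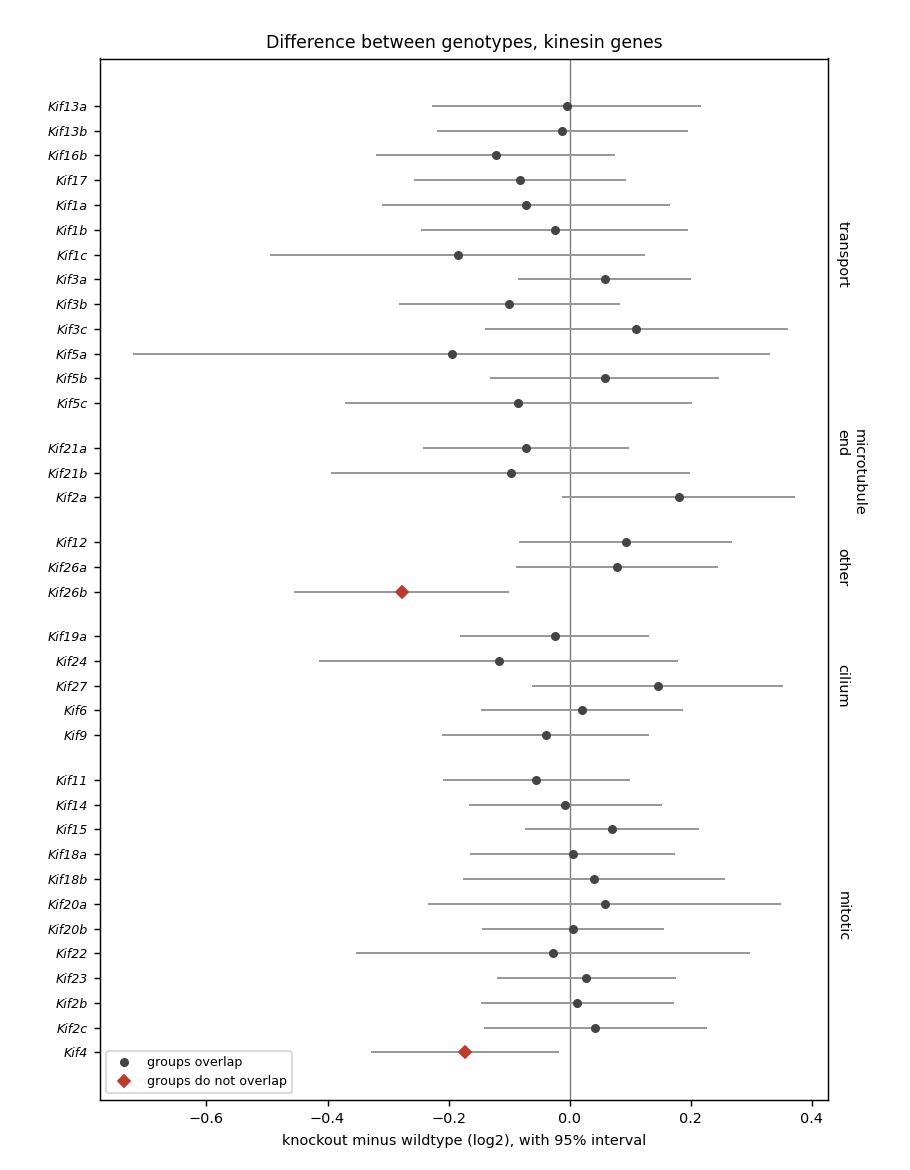
The knockout minus wildtype difference of each kinesin gene (log2) is drawn with its 95% interval from limma, grouped by class. Red diamonds mark Kif26b (-0.28) and Kif4 (-0.17), whose groups did not overlap, and all other intervals include 0.

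Kif26b, an atypical kinesin without motor activity known in mouse for its part in kidney development, had the smallest p of the family. It read 7.92, 7.97, 8.06 and 7.80 in knockout mice, against 8.22, 8.12, 8.18 and 8.34 in wildtype mice. Every knockout value lay under every wildtype value, and the nearest were 8.06 in knockout 3 and 8.12 in wildtype 2. The difference was -0.28 ± 0.080 (SE), with a 95% interval from -0.46 to -0.10 and an unadjusted p of 0.00574, and it did not pass over all probe sets (limma adjusted p = 0.997). Within the lower series of mouse numbers, knockout 1 lay 0.25 below the mean of 3 wildtype mice (7.92 against 8.17). Within the higher series, the 3 knockout mice averaged 7.94, against 8.34 in wildtype 4. Kif26b lies on chromosome 1, as Kcnh1 does, and was the single kinesin gene with its start within 20 Mb of that of Kcnh1 in the GRCm38.p6 gene table. Of 184 measured genes in that window, 10 were at an unadjusted p under 0.05 (5.43%), with Kif26b among them, against 3.16% of all probe sets. Whether its difference comes with the chromosome segment around the targeted allele was not tested. The other chromosome 1 members, Kif1a, Kif14 and Kif21b, read -0.07, -0.01 and -0.10. Its paralogue Kif26a, on chromosome 12, read 7.41 ± 0.117 in knockout and 7.33 ± 0.035 in wildtype mice (SD, n = 4 each).

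Kif4, the chromokinesin that condenses chromosomes and organises the central spindle, was the other gene without overlap. It read 5.64, 5.77, 5.80 and 5.79 in knockout mice, against 6.0, 5.92, 5.84 and 5.93 in wildtype mice. All 8 values lay under the Vmn1r line of 6.32, so that this difference of -0.17 ± 0.070 (SE; unadjusted p = 0.0328, limma adjusted p = 0.997) is one between readings that cannot be told from background. Its unadjusted p was 0.05 or more without any 1 of knockout 1, knockout 2, wildtype 1, wildtype 2 or wildtype 4, where the difference ran from -0.14 to -0.18.

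The kinesin-1 heavy chains Kif5a, Kif5b and Kif5c pull vesicles and mitochondria, and Kif5a is a form largely restricted to neurons. Kif5a read 11.77, 11.59, 11.28 and 10.80 in knockout mice, against 12.18, 11.51, 11.32 and 11.21 in wildtype mice. Its lowest and highest arrays, knockout 4 and wildtype 1, stood 1.38 log2 units apart, the widest range of the 36 genes, and the pooled within-group SD of 0.43 ranked at the percentile 98.9 of all probe sets. The groups overlapped, with a difference of -0.20 ± 0.238 (SE; limma adjusted p = 0.997) that was 0.01 without wildtype 1 and -0.01 without knockout 4. Kif5c read 11.09, 10.92, 10.79 and 10.68 in knockout mice, against 11.24, 11.07, 10.82 and 10.69 in wildtype mice. Again wildtype 1 was the highest array and knockout 4 the lowest, and the difference was -0.09 ± 0.129 (0.01 without wildtype 1). Kif5b, the form made in most cells, read 10.22, 10.29, 10.23 and 9.99 in knockout mice, against 10.15, 10.25, 10.06 and 10.04 in wildtype mice, a difference of 0.06 ± 0.086 that ran from 0.02 without knockout 2 to 0.12 without knockout 4. Wildtype 1 did not stand apart for Kif5b.

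The kinesin-2 motors Kif3a and Kif3b pair in a complex that works in cilia and in axons, Kif3c is a further partner, and Kif17 is known for carrying NMDA receptors in dendrites. Kif3a read 9.86, 9.88, 9.79 and 9.89 in knockout mice, against 9.77, 9.87, 9.80 and 9.75 in wildtype mice. This was the narrowest range of the 36 genes, 0.14 over all 8 mice, with a pooled SD at the percentile 2.1 of all probe sets, and its difference was 0.06 ± 0.065. Its partner Kif3b averaged 9.54 ± 0.107 in knockout and 9.64 ± 0.107 in wildtype mice (SD, n = 4 each), and Kif3c 10.32 ± 0.228 in knockout and 10.21 ± 0.110 in wildtype mice. Kif3c differed by 0.11 (unadjusted p = 0.351, limma), and with the series of mouse numbers fitted as a block by 0.24 (unadjusted p = 0.0408, limma adjusted p = 0.868). Within the lower series the single knockout mouse lay 0.35 above the mean of 3 wildtype mice. Within the higher series 3 knockout mice averaged 0.14 above the single wildtype mouse, which read 10.09, as knockout 3 did. Kif17 read 7.92, 7.78, 7.74 and 7.68 in knockout mice, against 8.00, 7.81, 7.84 and 7.80 in wildtype mice, a difference of -0.08 ± 0.079 (-0.04 without wildtype 1, -0.13 without knockout 1).

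Among the kinesin-3 motors, Kif1a carries synaptic vesicle precursors and dense core vesicles, and Kif1b carries mitochondria and vesicle precursors. Kif1a read 11.79, 11.68, 11.60 and 11.48 in knockout mice, against 11.97, 11.73, 11.50 and 11.64 in wildtype mice, a difference of -0.07 ± 0.107 that was 0.01 without wildtype 1. Kif1b averaged 11.19 ± 0.036 in knockout mice and 11.21 ± 0.208 in wildtype mice (SD, n = 4 each), where wildtype 1 alone read 11.51. Kif1c, a motor of wider use, read 8.66, 8.46, 8.40 and 8.24 in knockout mice, against 9.02, 8.63, 8.49 and 8.36 in wildtype mice, with a difference of -0.19 ± 0.140 that was -0.05 without wildtype 1, -0.12 without knockout 4 and -0.02 with the series block. Kif1c thus had its highest value in wildtype 1 and its lowest in knockout 4, as Kif5a and Kif5c did. Without wildtype 4 the Kif1c difference was -0.27. Kif16b, an endosome motor, read 7.95, 8.06, 8.03 and 7.82 in knockout mice, against 8.24, 8.16, 7.93 and 8.02 in wildtype mice, a difference of -0.12 ± 0.089 (-0.07 without wildtype 1 or without knockout 4). Without wildtype 3 the Kif16b difference was -0.175. Kif13a and Kif13b read -0.01 and -0.01 between the genotypes.

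**Figure D3:**
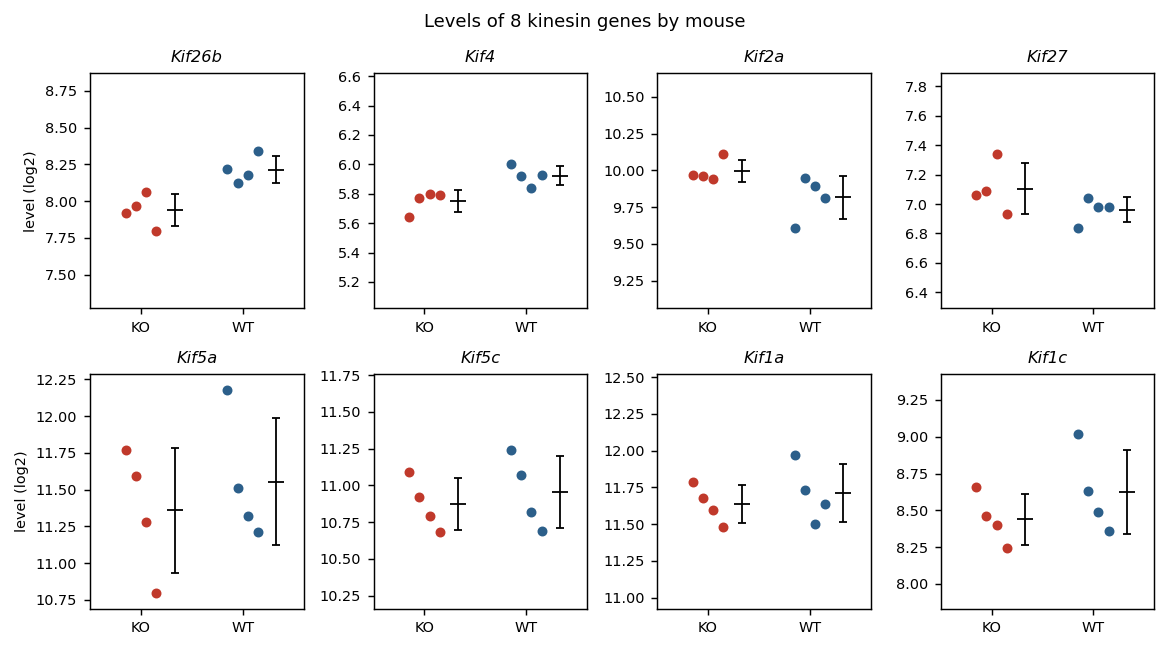
Log2 levels of 8 kinesin genes are shown by mouse, with knockout mice (KO, red) left of wildtype mice (WT, blue), mice in the order of their replicate numbers; black bars give the mean ± SD of 4 mice, and each panel spans 1.6 log2 units. The groups are apart for Kif26b and Kif4 and overlap for the other 6, with Kif5a spread from 10.80 to 12.18.

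Taken as a class, 10 of 13 transport kinesins had a lower mean in knockouts and 3 a higher one, with a median difference of -0.07, where all probe sets had a median of -0.0025 and 51.7% lower. No member was called, and the direction depended on wildtype 1. Wildtype 1 was the highest array for 9 of 13 transport kinesins (69.2%, against 22.3% of all probe sets), and knockout 4 the lowest for 10 of 13 (76.9%, against 17.8%). Without wildtype 1, 4 of 13 were lower and 9 higher, with a median of 0.01. Without knockout 4 the direction was weaker but stayed, with 8 of 13 lower and a median of -0.02. With wildtype 1 and knockout 1 both left out, 7 were lower and 5 higher, with a median of -0.04. Within the lower series of mouse numbers 3 of 13 transport kinesins were lower in the knockout mouse (all probe sets 49.0%), and within the higher series 4 of 13 were lower in the knockout mice (all probe sets 55.7%). The pooled direction thus did not hold within either series, each of which has 1 genotype with a single mouse. Among mitotic kinesins, 4 of 12 were lower in knockouts and 8 higher, with a median difference of 0.0087 and a span of differences from -0.17 for Kif4 to 0.07 for Kif15. That count also turned with 1 mouse, to 8 of 12 lower and a median of -0.03 without wildtype 1. Of these 12 genes, 5 had wildtype means above the Vmn1r line and 1 above the Olfr line. The mitotic counts thus rest mostly on readings that cannot be told from background.

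A score per array, the mean over a class of log2 levels centred on each gene's mean over 8 mice, showed which mice were high. The transport score was 0.12, 0.05, -0.08 and -0.19 in knockout mice, against 0.22, 0.07, -0.07 and -0.12 in wildtype mice, and the groups overlapped. The mitotic score was -0.09, -0.02, 0.08 and 0.03 in knockout mice, against -0.10, 0.03, -0.0014 and 0.06 in wildtype mice, and again the groups overlapped. Only 5 of its 12 genes had wildtype means above the Vmn1r line. Knockout 1 and wildtype 1 had the highest transport scores and the lowest mitotic scores. They were also the arrays with the widest interquartile range over all probe sets, 2.30 and 2.42, against 2.09 to 2.21 in the other 6. An array with a wider range reads bright genes brighter and dim genes dimmer, and its part in the scores of single mice was not tested. After quantile normalization once more, which equalises the arrays, Kif5a differed by -0.21, Kif5c by -0.11 and Kif1a by -0.10. Kif1c was then at -0.15, Kif16b at -0.09, Kif17 at -0.06, Kif3a at 0.05 and Kif5b at 0.05. By series of mouse numbers, the transport score ran from -0.07 to 0.22 in the lower and from -0.19 to 0.05 in the higher. Within the lower series it was 0.12 in the knockout mouse and 0.07 on average in wildtype mice, and within the higher series -0.07 on average in knockout mice and -0.12 in the wildtype mouse. The neuron marker score was 0.06, 0.02, -0.01 and -0.06 in knockout mice, against 0.11, 0.0047, -0.04 and -0.08 in wildtype mice. The astrocyte marker score was 0.11, 0.06, -0.05 and -0.13 in knockout mice, against 0.17, 0, -0.04 and -0.13 in wildtype mice. Both thus had their highest value in wildtype 1, with low values in knockout 4 and wildtype 4. Oligodendrocyte, endothelial and microglia markers were highest in knockout 3 (0.18), wildtype 3 (0.14) and knockout 1 (0.07). Wildtype 1 came next in each, at 0.16, 0.14 and 0.06. Choroid plexus markers were highest in wildtype 2 (0.88), and newborn neuron and ciliated ependyma markers in knockout 3 (0.08 and 0.09). The part of these marker lists in the transport score was not tested.

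**Figure D4:**
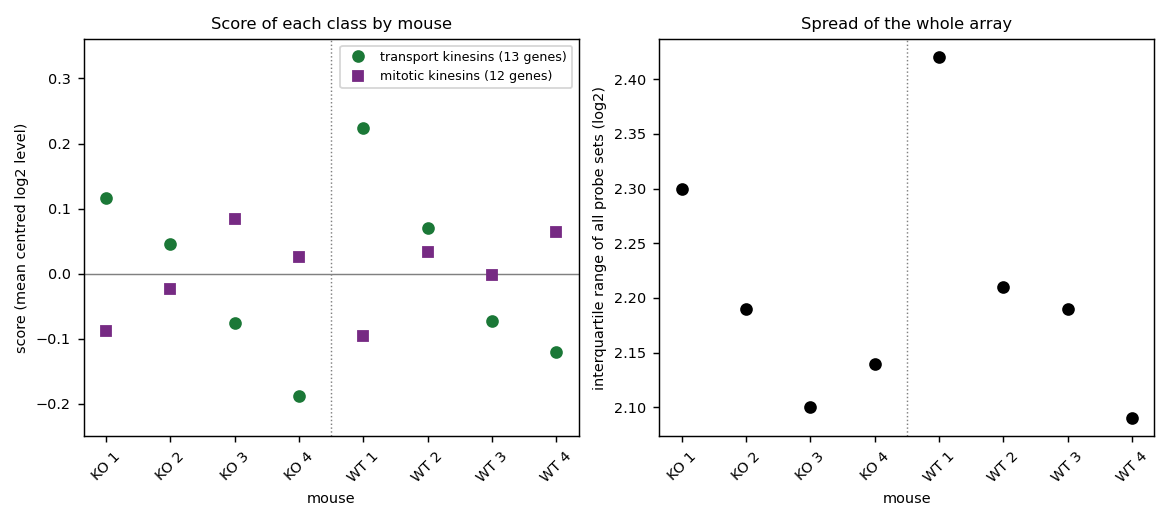
Left, the score of 13 transport kinesins (green) and of 12 mitotic kinesins (purple) in each mouse, in log2 units; right, the interquartile range of all 20985 probe sets on the same array, on an axis that does not start at 0. Wildtype 1 and knockout 1 have the highest transport scores (0.22 and 0.12), the lowest mitotic scores and the widest arrays.

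The remaining classes showed no call either. Kif2a, which takes microtubule ends apart and trims axon branches, read 9.97, 9.96, 9.94 and 10.11 in knockout mice, against 9.61, 9.95, 9.89 and 9.81 in wildtype mice. Only wildtype 2 reached into the knockout values, wildtype 1 was the lowest array, and the difference of 0.18 ± 0.087 (unadjusted p = 0.0635, limma adjusted p = 0.997) was 0.11 without wildtype 1. Without wildtype 2 the difference was 0.225. Kif21b, a motor that limits microtubule growth in neurons, read 8.34, 8.17, 8.07 and 7.89 in knockout mice, against 8.59, 8.07, 8.16 and 8.04 in wildtype mice, with a difference of -0.10 ± 0.134 that was 0.03 without wildtype 1. Its relative Kif21a averaged 10.23 ± 0.102 in knockout and 10.31 ± 0.079 in wildtype mice (SD, n = 4 each).

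The cilium kinesins Kif6, Kif9, Kif19a, Kif24 and Kif27 had wildtype means between 6.64 for Kif24 and 7.22 for Kif6. Kif27 read 7.06, 7.09, 7.34 and 6.93 in knockout mice, against 6.84, 7.04, 6.98 and 6.98 in wildtype mice, a difference of 0.15 ± 0.094 (0.07 without knockout 3). Knockout 3 had the highest Kif27 and also the highest score of 10 ciliated ependyma markers, 0.09, where the other knockout mice had 0.05, -0.03 and -0.07 and the wildtype mice -0.04 to 0.03. Kif6, Kif9, Kif19a and Kif24 each had their highest value in another mouse. Knockout 3 was the highest array for 8 of all 36 kinesins, and a link between Kif27 and ependyma content was not tested. Wildtype 2 read 12.43 for the choroid plexus transcript Ttr, where the other 7 arrays read 8.51 to 10.16. Its cilium kinesin score was 0.06, under 0.08 in wildtype 4 and over the remaining arrays, at -0.11 to 0.05. A part of choroid plexus tissue in that score was not tested. Of the mitotic members, Kif11, the motor that pushes spindle poles apart, read 6.42, 6.51, 6.51 and 6.38 in knockout mice, against 6.49, 6.61, 6.49 and 6.45 in wildtype mice, a difference of -0.06 ± 0.069 (-0.02 without wildtype 2). The cytokinesis motors Kif20a and Kif23 averaged 6.82 ± 0.205 and 6.48 ± 0.059 in knockout mice, against 6.76 ± 0.234 and 6.46 ± 0.054 in wildtype mice (SD, n = 4 each).

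Genes that work with kinesins were not called as single genes in any list. Of 22 measured light chains, adaptors and cargo links, 0 passed, 18 were lower and 4 higher in knockouts, with a median of -0.10, and 14 of 22 were highest in wildtype 1. Without wildtype 1, 12 were lower and 10 higher, with a median of -0.0050. The mitochondrial adaptor Trak1 read -0.18 ± 0.092, Madd, a link between Kif1a or Kif1b and vesicles, -0.17 ± 0.095, and the JNK scaffold Mapk8ip2 -0.22 ± 0.141 (SE; limma adjusted p = 0.997 for each). Trak1 was -0.12 without knockout 4, and without wildtype 1 Madd was -0.11 and Mapk8ip2 -0.09. Without knockout 1 they lay further from 0, with Trak1 at -0.24, Madd at -0.23 and Mapk8ip2 at -0.315. Of 21 genes of dynein and dynactin, which move cargo the other way, 12 were lower and 9 higher (median -0.14, and -0.0075 without wildtype 1). There Pafah1b1, the lissencephaly protein that regulates dynein, read 0.19 ± 0.084, the cargo adaptor Bicd2 -0.17 ± 0.080 and the dynactin subunit Dctn3 -0.17 ± 0.088 (-0.11 without wildtype 1). The 3 measured minus-end kinesins had lower knockout means, none of them called, with differences of -0.12 for Kifc2, -0.14 for Kifc3 and -0.14 for Kifc5b. Without knockout 4, Kifc2 was -0.05 and Kifc3 -0.07. Kifc5b was -0.05 without wildtype 4 and -0.30 with the series block (unadjusted p = 0.00818, limma adjusted p = 0.861). In that block fit 5.72% of all probe sets were at an unadjusted p under 0.05. Among 21 neuronal microtubule proteins, 15 were higher and 6 lower (median 0.04; 18 higher and 2 lower without wildtype 1). Doublecortin, Dcx, a microtubule-binding protein, was at an unadjusted p of 0.000631 (limma) with a difference of 0.31 ± 0.063. Map7d1 read -0.19 (-0.09 without wildtype 1, -0.27 without knockout 1). Mapre2 read 0.14 (0.09 without knockout 1, 0.21 without knockout 3). Of 24 cell division genes 11 were higher and 13 lower (median -0.01; 13 higher and 11 lower without wildtype 1). Tpx2, a spindle assembly factor that binds Kif11 and Kif15, was at an unadjusted p of 0.0421 with 7.03, 6.93, 6.89 and 6.85 in knockout mice, against 6.80, 6.80, 6.71 and 6.76 in wildtype mice, while Aurkb and Mcm2 read 0.13 and -0.10 (Mcm2 -0.06 without wildtype 3). The unadjusted p of Tpx2 was over 0.05 in 8 of 16 other fits, up to 0.12 without knockout 1. Every wildtype value of Tpx2 and the wildtype mean of Aurkb (6.815) lay under the Olfr line of 6.86, though above the Vmn1r line of 6.32. The limma adjusted p was 0.997 for Dcx and Tpx2 alike.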

How the data were processed

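Hippocampal RNA of 4 Kv10.1 -/- and 4 +/+ male mice was hybridised to Affymetrix arrays, 1 mouse each. The deposited values are log2 levels, 1 per probe set and array. Per the submitters' processing notes, the authors used R 2.9, limma and RMA, with settings not given in the sources used here. RMA as usually run equalises arrays, which can narrow differences between them. The deposited arrays were not fully equalised, with interquartile ranges from 2.09 in wildtype 4 to 2.42 in wildtype 1. Detection calls and depth do not apply, and the number of arrays limits the precision.

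Genotype was taken from titles, and replicate numbers pair nothing. limma 3.58.1 in R 4.3.3 (lmFit, eBayes, two-sided) was fitted to all 20985 probe sets at a threshold of 0.05 and tested on simulated data. Symbols came from the platform annotation, chromosomes and promoters from RefSeq (GRCm38.p6). No protein sequences were used here, so protein features were not analysed.

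The kinesin members, classes and gene lists were chosen with earlier results of these data known. Values by mouse are given for 9 preset members, the 6 with the smallest p, those without group overlap and the 3 with the widest range, with up to 3 genes per related list. Any further gene was picked out after seeing its values. Alternatives covered variance models, array weights, normalization, filters on dim probe sets, the mouse series as a block, omitted mice, list membership and another background family.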

Additional observations from a re-analysis of the deposited data

Results flagged for a closer look

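Of 72 groups of 4 mice (36 genes by 2 genotypes), 2 held a mouse far from the other 3 by Dixon's test, where chance flags about 1 group in 20. Kif14 read 5.85 in knockout 3 and 5.78 to 5.79 in the other knockout mice, so that the gap took a share of 0.857 of the group's range. Kif23 read 6.57 in knockout 3 and 6.44 to 6.46 in the other knockout mice, a share of 0.846. Both gaps are at most 0.11 log2 units, and deposited values have 2 decimals.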

How the results depend on the processing

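No kinesin gene passed an adjusted p of 0.05 under any of 17 other fits. The count at an unadjusted p under 0.05 was 2, and it was 1, Kif26b, when the dimmest 25% or 50% of the array was dropped, which removes Kif4, and without both wildtype 1 and knockout 1. It was 3 with array weights (Kif24 joined, where 6.01% of all probe sets were at that p) and 3 with the mouse-number series fitted as a block (Kif3c joined, 5.72%), against 3.16% in the fit reported. It ran from 1 to 2 with single mice left out, and Kif26b was in it under every one of the 17 fits, while without wildtype 2 Kif2a took the place of Kif4. The count of genes without group overlap, 2, was 1 with the dimmest 25% or 50% left out, 4 without wildtype 1 and knockout 1 (Kif15 and Kif17 joined), and from 2 to 4 with single mice left out. Smaller groups overlap less often, and the shares of all probe sets without overlap were 7.88% at 3 mice against 3 and 3.42% to 5.28% with single mice left out. The transport median of -0.07 was 0.03 with array weights and 0.06 with the mouse-number series fitted as a block, and ran from -0.12 to 0.01 with single mice left out. The mitotic median ran from -0.05 to 0.04 over all alternatives.

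Signs turned for 4 named genes. With array weights Kif1a was 0.0206, Kif21b 0.0040 and Kif5a 0.0336. With the series block Kif1a was 0.0017, Kif21b 0.035, Kif5a 0.0567 and Kif5c 0.0767. With single mice left out Kif1a ran from -0.1425 to 0.0142, Kif21b from -0.1717 to 0.0275, Kif5a from -0.3317 to 0.0133 and Kif5c from -0.1733 to 0.01, each above 0 only without wildtype 1. The cause was not tested. The other 473 values of named genes kept direction and side of the adjusted threshold. At an unadjusted p of 0.05, 33 of 484 values changed side, in 12 of 29 genes. Leaving out 1 mouse moved the difference by over 1.5 times in 11 of 14 named kinesins and 10 of 15 related genes. In each of these genes some omissions took the difference nearer to 0 and others took it further away. The counts per related list without wildtype 1 were chosen after seeing the data. No paired analysis was possible because each mouse has its own number and no label pairs mice across genotypes.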
